A study of Mus musculus with 9 samples.

Results

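Integrins are receptors that fix cells to matrix and to other cells, and each is a pair of an alpha and a beta subunit. The 10 subunits described here were chosen by name from the 49315 genes of the deposited count table, as those known from macrophages and osteoclasts: Itga4, Itga5, Itgav, Itgam, Itgal and Itgax for the alpha chains, and Itgb1, Itgb2, Itgb3 and Itgb5 for the beta chains. They take 11 lines of the table, because 2 genes there carry the symbol Itgam. All 10 symbols passed the filter on low counts.

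An alpha chain reaches the cell surface only when it is paired with its beta chain, and a beta chain can serve several alpha chains, so the RNA of partners is best read together. Macrophages are known for the beta2 integrins, which bind complement fragments, ICAM proteins and fibrinogen, and for alpha4beta1 and alpha5beta1, which bind VCAM1 and fibronectin. Osteoclasts are known for alphaVbeta3, the vitronectin receptor, which sits in the ring of podosomes that seals the cell to bone. Talin and kindlin proteins at the beta tail and the small GTPase Rap1, which carries a geranylgeranyl lipid, switch integrins to the form that binds.

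The cells were RAW 264.7, an established line of mouse macrophages, from which RANKL, the cytokine of osteoclast formation, can raise osteoclast-like cells. Per the growth notes, cells grew for 24 h, received 20 ng/ml RANKL and, after 48 h in all, were kept for another 24 h with or without drug. Total RNA was sequenced after removal of ribosomal RNA, from 300 ng per library. The study asked how a nitrogen-containing bisphosphonate acts on such cells and whether geranylgeraniol counters it.

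The first group received 140 µM pamidronate with 5.25 µM geranylgeraniol (GGOH), the second 140 µM pamidronate alone, and the third, the control, neither. Pamidronate blocks farnesyl diphosphate synthase and so the supply of farnesyl and geranylgeranyl lipids, and GGOH is an alcohol from which cells can make the geranylgeranyl lipid again. RANKL stands in the growth notes of all 9 libraries, although the control labels read as untreated, and there was no group without RANKL. No group received GGOH alone, so an effect of GGOH by itself cannot be told apart from one on the pamidronate response. Each group had 3 libraries. Only the control titles speak of biological replicates, so p-values speak of the spread among these libraries, which may be technical.

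Library totals were 14356069 to 17559086 counts with pamidronate + GGOH, 16444207 to 16644139 with pamidronate and 16943250 to 18957968 in the control. All libraries had the macrophage marker Csf1r, at 296 to 614, 75.4 to 120 and 1357 to 1416 CPM, counts scaled to the size of the library, in the same order of groups. Of 11 osteoclast markers, 8 reached 1 CPM in each group. In the control the highest were Car2 (carbonic anhydrase 2), at a mean of 986 CPM, Nfatc1 (134 CPM), the RANK receptor Tnfrsf11a (130 CPM), the proton pump subunit Atp6v0d2 (58.2 CPM) and Mmp9 (27.1 CPM). Acp5 (the acid phosphatase TRAP) averaged 5.27 CPM there, Ctsk (cathepsin K) 4.70 CPM and Dcstamp 2.56 CPM, Oscar and Ocstamp were under 1 CPM, and Calcr (the calcitonin receptor) had 0 counts. Markers of neutrophils, B cells, fibroblasts and epithelial cells each had a group mean under 1 CPM in all groups. Of the T cell markers Lck passed 1 CPM (means of 7.11, 7.49 and 4.04 CPM), and of the dendritic cell markers Zbtb46 (5.71, 5.41 and 5.39 CPM), Xcr1 with pamidronate (2.23 CPM) and Clec9a in the control (1.25 CPM). The summed markers of platelets and megakaryocytes had 6.24 to 9.10, 5.33 to 5.62 and 6.60 to 12.6 CPM.

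Start regions are shown for 4 alpha chains, because Itgam and Itgax are neighbours on chromosome 7 with different responses, and Itga4 and Itga5 share the partner Itgb1 and moved in opposite directions. RefSeq's promoter table for GRCm38.p6 matched 7 of the 10 symbols and had no entry for Itgal, Itgb2 and Itgb3. The 250 bases before each start lie at chr7:128062390-128062639 (plus strand) for Itgam, chr7:128129300-128129549 (plus) for Itgax, chr2:79255176-79255425 (plus) for Itga4 and chr15:103366792-103367041 (minus) for Itga5. They are written 5′ to 3′ on the gene's strand, and capitals mark the core of sites for the myeloid factor PU.1, GAGGAA or on the other strand its complement, and the AP-1 site, TGANTCA.
Itgam: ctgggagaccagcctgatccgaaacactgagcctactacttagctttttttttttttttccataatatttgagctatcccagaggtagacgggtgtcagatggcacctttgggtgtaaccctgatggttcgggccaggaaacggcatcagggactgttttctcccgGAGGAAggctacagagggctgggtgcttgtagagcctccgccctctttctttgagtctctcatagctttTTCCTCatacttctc
Itgax: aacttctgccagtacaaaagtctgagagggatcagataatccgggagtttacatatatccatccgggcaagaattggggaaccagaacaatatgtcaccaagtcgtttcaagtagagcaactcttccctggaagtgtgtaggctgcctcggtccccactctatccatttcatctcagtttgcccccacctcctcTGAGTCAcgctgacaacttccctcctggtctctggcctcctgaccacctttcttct
Itga4: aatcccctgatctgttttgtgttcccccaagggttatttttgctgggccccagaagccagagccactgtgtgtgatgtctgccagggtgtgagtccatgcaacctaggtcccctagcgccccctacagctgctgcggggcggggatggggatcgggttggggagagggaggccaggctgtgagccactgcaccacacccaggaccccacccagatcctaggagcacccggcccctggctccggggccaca
Itga5: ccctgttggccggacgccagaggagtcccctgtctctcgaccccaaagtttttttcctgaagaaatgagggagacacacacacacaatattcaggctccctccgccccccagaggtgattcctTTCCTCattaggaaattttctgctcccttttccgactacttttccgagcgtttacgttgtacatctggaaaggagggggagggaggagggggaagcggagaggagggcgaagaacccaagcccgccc

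Itgam held GAGGAA at -84 to -79 and, on the other strand, at -15 to -10, counted from the start. Itga5 held it once, at -127 to -122 on the other strand, and Itgax and Itga4 did not hold it in this window. Among the matched windows not shown, Itgav held it at 2 positions and Itgb1 at 1, and Itgb5 did not hold it. Of 32851 promoters of the same length, 23.3% held it on either strand. Itgax held the AP-1 site at -56 to -50, as did 6.75% of all promoters. The GC box GGGCGG, which 32.7% of promoters held, occurred once in Itga4 and in Itgam and at 2 positions in Itga5. The E-box CANNTG occurred once in each of Itga4, Itgam and Itga5, against 66.2% of promoters with at least 1. TATAAA, in 12.4% of promoters, and the SRF CArG box, in 1.47%, were in none of the 7 matched windows. None of the matches in these windows overlapped another. A match is a string of letters and not a binding site.

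Calls rest on the quasi-likelihood test of edgeR, with p-values adjusted by Benjamini-Hochberg over the 15963 genes tested and a limit of 0.05. All fold changes below are from that test, with their standard error (SE), and CPM values carry the SD of 3 libraries. Pamidronate changed most members: against the control 9 of 10 were called, 2 higher (Itga5 and Itgb3) and 7 lower (Itga4, Itgav, Itgam, Itgal, Itgb1, Itgb2 and Itgb5), while Itgax was not called. The same comparison called 69.2% of all genes tested, 36.2% higher and 32.9% lower, so most genes of the table were called too. The groups did not overlap for 9 members and for 73.4% of all genes, and 7 members but 37.9% of all genes were called with a change of at least 2-fold. The median log2 fold change was -1.16 over the members and 0.08 over all genes.

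With GGOH beside pamidronate, 8 members were called against pamidronate alone, 7 higher (Itga4, Itgam, Itgal, Itgax, Itgb2, Itgb3 and Itgb5) and 1 lower (Itga5). Itgav and Itgb1 were not called. Of all genes, 48.8% were called, 25.2% higher and 23.6% lower. The groups did not overlap for 8 members and for 59.6% of genes, 3 members and 16.2% of genes changed at least 2-fold, and the medians were 0.60 over the members and 0.00 over all genes.

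Pamidronate + GGOH against the control called 9 members, 3 higher (Itga5, Itgax and Itgb3) and 6 lower (Itga4, Itgav, Itgal, Itgb1, Itgb2 and Itgb5). Itgam was not called. Of all genes 52.4% were called, 26.3% higher and 26.0% lower, and 58.2% did not overlap, against 9 members that did not. At least 2-fold changes were called for 4 members and 19.3% of genes, and the medians were -0.68 and 0.02. These 3 comparisons share libraries, so they are given side by side and not as independent results. With upper-quartile factors in place of TMM factors, the median of all genes was 0.28 for pamidronate against control and 0.23 for pamidronate + GGOH against control, and the calls of the second split into 5834 higher and 2600 lower instead of 4202 and 4157. No member changed direction or call under those factors.

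**Figure D1:**
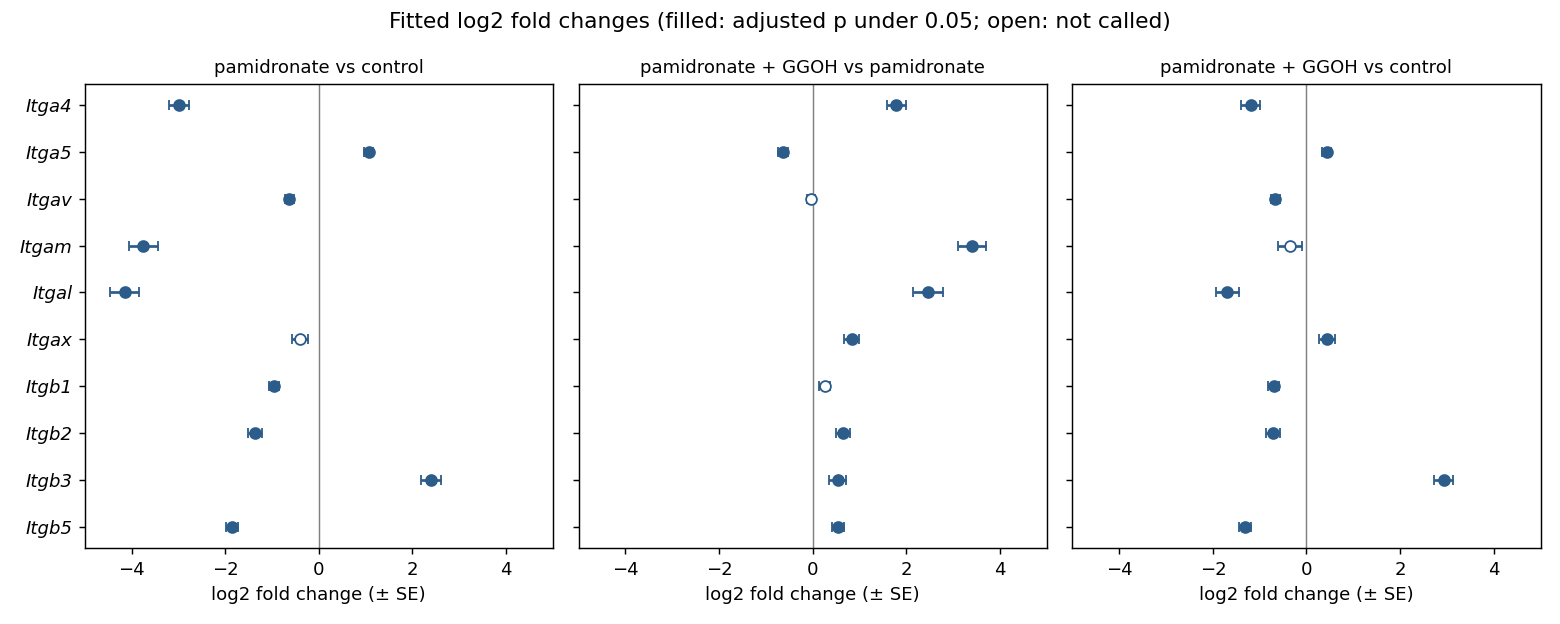
Fitted log2 fold change of each subunit in the 3 comparisons, with bars of 1 SE. Filled points had an adjusted p under 0.05. Against the control, Itga5 and Itgb3 lie right of 0 with pamidronate, while Itga4, Itgam and Itgal lie furthest to the left.

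Itga4 (ENSMUSG00000027009, chromosome 2, 79255426 to 79333123, GRCm38), the alpha4 chain of the VCAM1 receptor, was the most abundant member per length in the control. It had 1725, 1921 and 2903 CPM in the pamidronate + GGOH libraries, 763, 645 and 485 CPM in the pamidronate libraries, and 4931, 4789 and 5264 CPM in the control libraries. The 3 groups did not overlap, and pamidronate + GGOH replicate 3 lay nearest the control. By mean CPM Itga4 ranked 23, 123 and 16 among the 49315 genes in pamidronate + GGOH, pamidronate and the control. It fell by 2.98 ± 0.21 with pamidronate on the log2 scale (adjusted p = 8.64e-08). With GGOH it was 1.79 ± 0.20 higher than with pamidronate alone (adjusted p = 1.56e-05) and changed by -1.19 ± 0.20 against the control (adjusted p = 0.000333). Its exons share 1124 bases, 8.04% of their length, with the opposite-strand gene Cerkl, which had 10 to 83 counts per library. Whether the counting used strand is not given in the sources used here.

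Itga5 (ENSMUSG00000000555, chromosome 15, 103344286 to 103366763), the alpha5 chain of the fibronectin receptor, moved the opposite way and shares the beta1 partner. Its levels were 114, 114 and 92.8 CPM with pamidronate + GGOH, 166, 182 and 148 CPM with pamidronate, and 79.6, 78.7 and 78.5 CPM in the control. Every pamidronate library was above every pamidronate + GGOH library, and those were above every control library. Itga5 rose with pamidronate by 1.07 ± 0.10 (adjusted p = 3.01e-07), changed by -0.63 ± 0.10 with GGOH against pamidronate (adjusted p = 0.000108), and was 0.43 ± 0.10 above the control with both agents (adjusted p = 0.00215).

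Itgb1 (ENSMUSG00000025809, chromosome 8, 128685654 to 128733200), the beta1 chain that both of these and alphaV can join, had 82.5, 89.3 and 102 CPM with pamidronate + GGOH, 78.3, 87.7 and 63.1 CPM with pamidronate, and 156, 146 and 142 CPM in the control. The control libraries stood above all others, and the other groups overlapped. It fell by 0.96 ± 0.11 with pamidronate (adjusted p = 3.76e-06) and changed by -0.70 ± 0.11 with pamidronate + GGOH against the control (adjusted p = 0.00019). Between pamidronate + GGOH and pamidronate the difference was 0.26 ± 0.11 (adjusted p = 0.0742). That difference lay near the threshold: without pamidronate replicate 2, without pamidronate + GGOH replicate 1 or without control replicate 3 the adjusted p was 0.0302, 0.0223 or 0.0466. It also passed without the filter on low counts (adjusted p = 0.0131), with TMM factors set without mitochondrial RNAs, Malat1 and Gm26917 (adjusted p = 0.0414) and with limma on the deposited TPM (adjusted p = 0.0129). Over all settings the difference was 0.14 to 0.46, with an adjusted p of up to 0.346.

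The ratio of partners within a library does not depend on the scaling between libraries. Ratios are given on the scale of deposited TPM, which divides counts by exon length and scales them to 1 sum in all libraries. The tests are exact two-sided permutation tests of the difference in the log2 count ratio, 3 libraries against 3, where 0.1 is the smallest p possible. Across 8 pairs and 3 comparisons 24 tests were run, and a p of 0.1 became 0.12 after Benjamini-Hochberg adjustment over them. No ratio could therefore pass 0.05, and the values describe these libraries.

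The Itga4 to Itgb1 ratio was 6.11, 6.28 and 8.27 with pamidronate + GGOH, 2.84, 2.15 and 2.25 with pamidronate, and 9.20, 9.56 and 10.8 in the control. The Itga5 to Itgb1 ratio was 1.27, 1.17 and 0.832 with pamidronate + GGOH, 1.95, 1.91 and 2.16 with pamidronate, and 0.467, 0.494 and 0.507 in the control. For both pairs all 3 groups were apart in every comparison, with an exact permutation p of 0.1 each. On the log2 count scale the pamidronate libraries differed from the control by -2.04 ± 0.18 for Itga4 over Itgb1 and by 2.03 ± 0.08 for Itga5 over Itgb1 (pooled SD, n = 3 each). With pamidronate the TPM ranges of Itga4 (85.3 to 139) and Itga5 (82.1 to 99.9) overlapped, whereas in the control Itga4 had 750 to 889 TPM and Itga5 38.1 to 41.7 TPM.

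As a share of the TPM summed over the 6 alpha members, Itga4 made up 72.4 ± 4.39% with pamidronate + GGOH, 45.9 ± 4.61% with pamidronate and 84.5 ± 1.05% in the control (SD, n = 3). Itga5 made up 11.8 ± 3.50%, 38.4 ± 3.06% and 4.21 ± 0.237% in the same groups. The sum itself was 610 ± 142 TPM with pamidronate + GGOH, 242 ± 35.3 TPM with pamidronate and 959 ± 93.3 TPM in the control. The larger Itga5 share with pamidronate came with a higher Itga5 level and a lower total.

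**Figure D2:**
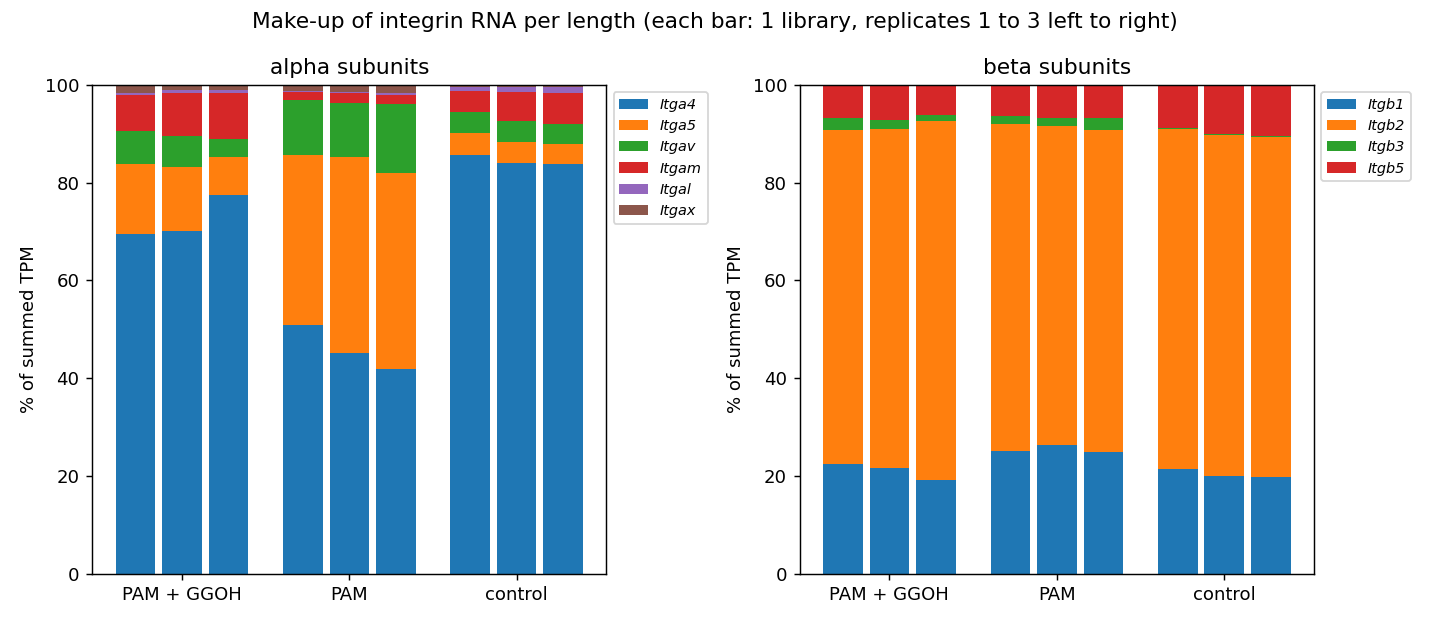
Share of each subunit in the TPM summed over the alpha members (left) and over the beta members (right), 1 bar per library, with pamidronate + GGOH, pamidronate and control from left to right. The Itga4 share of the alpha sum is smallest and the Itga5 share largest in the pamidronate bars, while the beta shares differ less in percentage points.

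Itgam (ENSMUSG00000030786, chromosome 7, 128062640 to 128118491) is the alphaM chain, which with beta2 forms Mac-1 or complement receptor 3. It had 64.4, 85.7 and 127 CPM with pamidronate + GGOH, 8.43, 9.74 and 7.99 CPM with pamidronate, and 89.2, 120 and 143 CPM in the control. The pamidronate libraries stood far below all others, and the other groups overlapped. Itgam fell by 3.75 ± 0.30 with pamidronate on the log2 scale (adjusted p = 1.03e-05) and with GGOH was 3.40 ± 0.30 higher than with pamidronate alone (adjusted p = 4.93e-05), the largest difference among the members in that comparison. Pamidronate + GGOH differed from the control by -0.34 ± 0.26 (adjusted p = 0.294). Without pamidronate + GGOH replicate 3, the library with the highest level of its group, that difference was -0.66 and passed the test (adjusted p = 0.0225). Over all settings it was -0.66 to -0.04, with an adjusted p of up to 0.904.

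The second gene with this symbol (ENSMUSG00000108596, chromosome 7, 128062683 to 128128160) shares 3450 exon bases with the first. They are 71.8% of the second gene's exon length and 68.7% of the first gene's. It had 15, 10 and 19 counts with pamidronate + GGOH, 4, 3 and 3 with pamidronate, and 8, 16 and 7 in the control. It was lower with pamidronate than in the control by a fitted -1.51 ± 0.53 (adjusted p = 0.0206), a call that was lost on leaving out control replicate 2 (adjusted p = 0.112) and on leaving out pamidronate replicate 2 or 3 (adjusted p = 0.056 and 0.06), and with DESeq2 (adjusted p = 0.0603). All 1353 of its bases outside the first gene form its last exon, 128126808 to 128128160. The sources used here do not give how reads on the shared bases were counted. If only the bases of Itgam outside the second gene were counted, its level per length would be too low by 3.19 times, alike in every library. Taking Itgam as the sum of both genes, an alternative chosen after seeing the data, left the number of members called in each comparison at 9, 8 and 9.

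Itgal (ENSMUSG00000030830, chromosome 7, 127296260 to 127335138), the alphaL chain of LFA-1, which binds ICAM1, was low. It had 113, 129 and 245 counts with pamidronate + GGOH, 21, 30 and 29 with pamidronate, and 391, 501 and 609 in the control, or 6.41, 8.04 and 12.9, 1.28, 1.90 and 1.80, and 22.8, 28.1 and 37.7 CPM. No library of a group reached into another group. Its log2 fold change of -4.15 ± 0.31 with pamidronate was the largest fall among the members (adjusted p = 4.6e-07). With GGOH it was 2.46 ± 0.32 higher than with pamidronate alone (adjusted p = 9.21e-05) and changed by -1.69 ± 0.25 against the control (adjusted p = 0.00028).

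Itgax (ENSMUSG00000030789, chromosome 7, 128129547 to 128150657), the alphaX chain, also called CD11c, begins 11055 bases after Itgam ends. It had 13.7, 10.2 and 12.6 CPM with pamidronate + GGOH, 6.66, 7.02 and 6.81 CPM with pamidronate, and 7.01, 9.80 and 10.1 CPM in the control. The pamidronate + GGOH libraries were the highest, just above the control, and pamidronate overlapped the control at its lowest library. Itgax was 0.83 ± 0.17 higher with GGOH than with pamidronate alone (adjusted p = 0.000959), and the pamidronate libraries differed from the control by -0.39 ± 0.17 (adjusted p = 0.0527). Pamidronate + GGOH was 0.44 ± 0.17 above the control (adjusted p = 0.0376).

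Both differences of Itgax from the control lay near the threshold, and which side they fell on turned on single libraries and settings. Over all settings the pamidronate difference was -0.55 to -0.20, with an adjusted p of up to 0.306. Without control replicate 1 the pamidronate difference was -0.55 and passed (adjusted p = 0.00787), as it did without any 1 of the pamidronate + GGOH libraries (adjusted p = 0.0292 to 0.0314) with RLE factors (adjusted p = 0.0386), with TMM factors set without mitochondrial RNAs, Malat1 and Gm26917 (adjusted p = 0.0339), without the filter on low counts (adjusted p = 0.0234) and with the 2 groups alone (adjusted p = 0.0428). The call of pamidronate + GGOH against the control did not hold on leaving out control replicate 1 (difference 0.28, adjusted p = 0.157) or 2 (adjusted p = 0.057), pamidronate + GGOH replicate 1 or 3 (adjusted p = 0.152 and 0.0834), or pamidronate replicate 1 or 2 (adjusted p = 0.0521 and 0.0546). It was not called by DESeq2 (adjusted p = 0.0977) or without the filter (adjusted p = 0.0711).

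Itgb2 (ENSMUSG00000000290, chromosome 10, 77530252 to 77565708), the beta2 chain that Itgam, Itgal and Itgax all need, had 187, 216 and 292 CPM with pamidronate + GGOH, 156, 163 and 125 CPM with pamidronate, and 382, 383 and 376 CPM in the control. The 3 groups did not overlap, and pamidronate + GGOH replicate 3 again lay nearest the control. Itgb2 fell by 1.36 ± 0.15 with pamidronate (adjusted p = 2.96e-06), was 0.65 ± 0.14 higher with GGOH than with pamidronate alone (adjusted p = 0.00252), and changed by -0.71 ± 0.14 with both agents against the control (adjusted p = 0.00124). With limma on the deposited TPM the last comparison was not called (adjusted p = 0.0587).

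With pamidronate the log2 change of the beta2 chain was smaller than those of Itgam and Itgal. The Itgam to Itgb2 ratio was 0.209, 0.241 and 0.264 with pamidronate + GGOH, 0.0329, 0.0364 and 0.0387 with pamidronate, and 0.142, 0.190 and 0.231 in the control. The pamidronate libraries stood apart from both other groups (exact permutation p = 0.1 each), which overlapped each other (exact permutation p = 0.2). The Itgal to Itgb2 ratio was 0.0179 ± 0.00233, 0.00530 ± 0.00142 and 0.0361 ± 0.00953 with pamidronate + GGOH, pamidronate and control, all apart. The Itgax to Itgb2 ratio was 0.0346 ± 0.0103, 0.0297 ± 0.00419 and 0.0150 ± 0.00294 in that order, with the control below both and no separation of the other groups (exact permutation p = 0.6). These TPM ratios use Itgam's first gene and carry the doubt on its length-scaled level.

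Within the TPM of the beta2 partners, Itgam made up 81.8 ± 4.13% with pamidronate + GGOH, 50.8 ± 2.13% with pamidronate and 78.6 ± 0.42% in the control. Itgax made up 12.1 ± 4.41%, 41.8 ± 1.91% and 6.34 ± 0.49%, and Itgal 6.14 ± 0.37%, 7.38 ± 1.23% and 15.1 ± 0.83%. The summed TPM of the 3 was 63.7 ± 20.0 with pamidronate + GGOH, 8.46 ± 0.48 with pamidronate and 67.8 ± 18.8 in the control. These shares and sums carry the same doubt on Itgam's length-scaled level, as do those over the 6 alpha members. The larger Itgax share with pamidronate came with an Itgax level in the range of 3.49 to 3.56 TPM, against 3.10 to 4.98 TPM in the control.

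Itgav (ENSMUSG00000027087, chromosome 2, 83724397 to 83806916), the alphaV chain that joins beta1, beta3 and beta5, had 128, 133 and 105 CPM with pamidronate + GGOH, 129, 123 and 125 CPM with pamidronate, and 194, 191 and 196 CPM in the control. The control stood above all others, which overlapped. Itgav fell by 0.63 ± 0.09 with pamidronate (adjusted p = 2.41e-05) and changed by -0.67 ± 0.09 with both agents against the control (adjusted p = 4.74e-05). The difference with GGOH against pamidronate was -0.04 ± 0.09 (adjusted p = 0.744), and its sign turned under several settings. Its exons share 634 bases, 5.9% of their length, with the opposite-strand gene Gm13684, at 28 to 87 counts.

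Itgb3 (ENSMUSG00000020689, chromosome 11, 104608000 to 104670476), the beta3 chain of the osteoclast vitronectin receptor, was the member with the largest rise. It had 234, 186 and 194 counts with pamidronate + GGOH, 133, 114 and 142 with pamidronate, and 19, 27 and 32 in the control, or 13.3, 11.6 and 10.2, 8.13, 7.21 and 8.80, and 1.11, 1.51 and 1.98 CPM. The pamidronate + GGOH libraries were highest, the pamidronate libraries next and the control lowest, with no overlap. Itgb3 rose with pamidronate by 2.39 ± 0.21 (adjusted p = 2.01e-07) and with both agents by 2.93 ± 0.21 against the control (adjusted p = 3.2e-07). The step with GGOH over pamidronate was 0.54 ± 0.18 (adjusted p = 0.0212), and it was not called without pamidronate replicate 1 (adjusted p = 0.0562), pamidronate replicate 2 (adjusted p = 0.0933) or pamidronate + GGOH replicate 1 (adjusted p = 0.0607). Of the members called in both, Itga5 had a lower level with GGOH than with pamidronate alone and Itgb3 a higher one.

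Itgb5 (ENSMUSG00000022817, chromosome 16, 33829665 to 33949153), the beta5 chain and the second vitronectin-binding partner of alphaV, had 20.3, 24.2 and 26.6 CPM with pamidronate + GGOH, 16.1, 18.7 and 14.1 CPM with pamidronate, and 53.3, 61.0 and 62.4 CPM in the control. The 3 groups did not overlap. It fell by 1.86 ± 0.13 with pamidronate (adjusted p = 1.95e-08), was 0.54 ± 0.13 higher with GGOH than with pamidronate alone (adjusted p = 0.00286), and changed by -1.31 ± 0.12 with both agents against the control (adjusted p = 3.1e-06). The beta3 and beta5 chains moved in opposite directions against the control.

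The Itgav to Itgb3 ratio in TPM was 5.30, 6.32 and 5.67 with pamidronate + GGOH, 8.71, 9.34 and 7.82 with pamidronate, and 96.2, 69.4 and 54.4 in the control, with all 3 groups apart. The Itgav to Itgb5 ratio was 1.98, 1.72 and 1.24, 2.51, 2.06 and 2.79, and 1.14, 0.981 and 0.983 in the same groups, also apart. The Itgav to Itgb1 ratio was 0.516 ± 0.109, 0.637 ± 0.112 and 0.497 ± 0.0258, with pamidronate above the control (exact permutation p = 0.1) and overlaps in the other comparisons (exact permutation p = 0.4 and 1). Itgb3 made up 1.92 ± 0.59% of the summed beta TPM with pamidronate + GGOH, 1.90 ± 0.46% with pamidronate and 0.146 ± 0.042% in the control, so it stayed a small part of the beta RNA in every group. Itgb2 held 70.4 ± 2.67%, 66.1 ± 0.71% and 69.7 ± 0.09%.

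**Figure D3:**
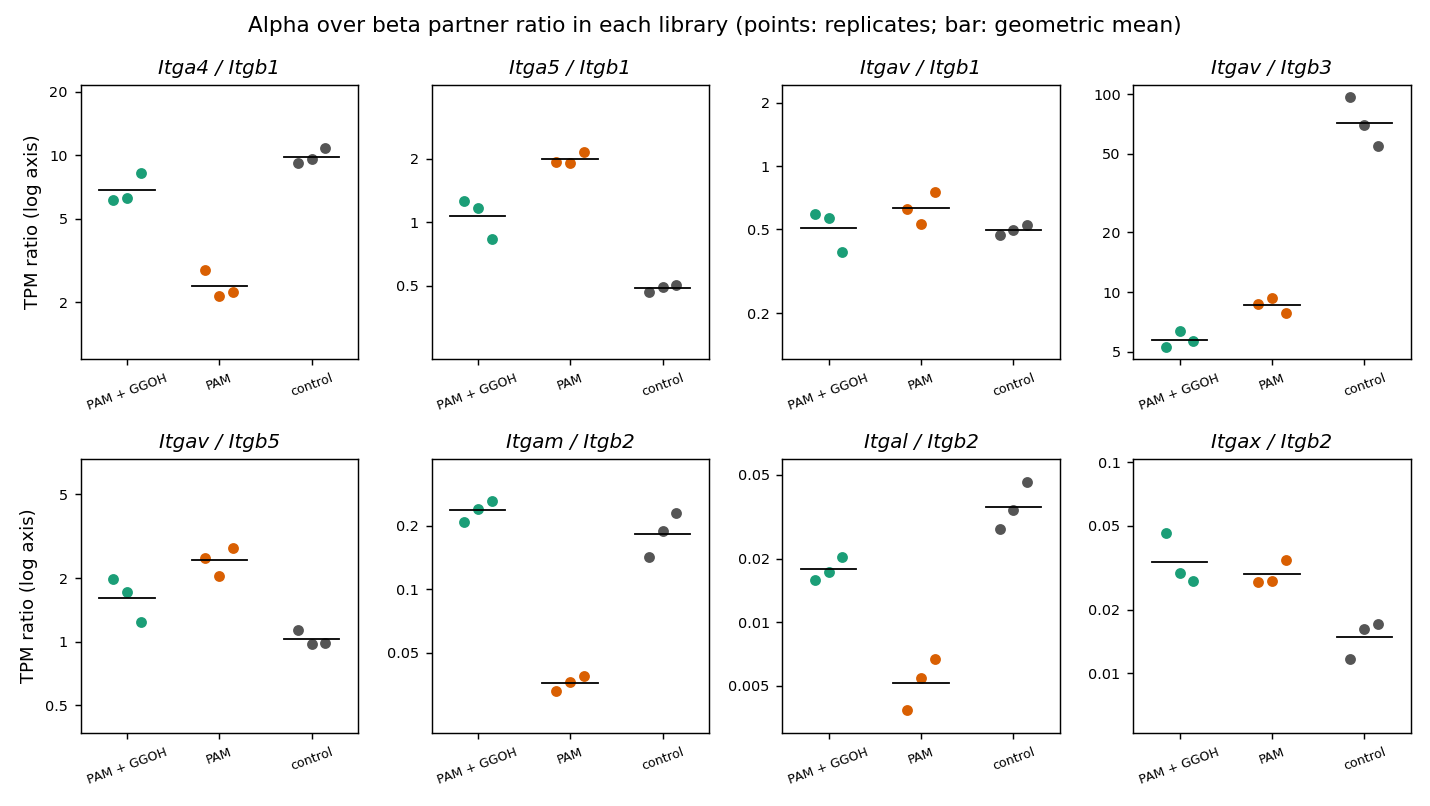
TPM ratio of each alpha chain to a beta partner in every library, on log axes, with the geometric mean as a bar. Itga4 over Itgb1 and Itgam over Itgb2 are lowest with pamidronate, Itga5 over Itgb1 is highest there, and Itgav over Itgb3 is far higher in the control than in both other groups.

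By mean TPM, the order of levels with pamidronate + GGOH was Itga4 (446), Itgb2 (217), Itga5 (68.4), Itgb1 (63.9), Itgam (52.5), Itgav (32.4), Itgb5 (20.1), Itgax (7.19), Itgb3 (5.64) and Itgal (3.96). With pamidronate it was Itgb2 (120), Itga4 (112), Itga5 (92.4), Itgb1 (46.5), Itgav (29.0), Itgb5 (12.0), Itgam (4.31), Itgax (3.53), Itgb3 (3.39) and Itgal (0.625). In the control it was Itga4 (810), Itgb2 (282), Itgb1 (82.2), Itgam (53.3), Itgav (40.9), Itga5 (40.2), Itgb5 (39.8), Itgal (10.3), Itgax (4.27) and Itgb3 (0.594). Neighbours whose ranges overlapped were Itga5 to Itgav and Itgax to Itgal with pamidronate + GGOH, Itgb2 to Itga5 and Itgax with Itgb3 with pamidronate, and Itgam to Itgb5 in the control. Itga4 and Itgb2 held the top places of each group, and the lowest place was Itgb3's in the control and Itgal's elsewhere. The place of Itgam carries the doubt on its length-scaled level.

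**Figure D4:**
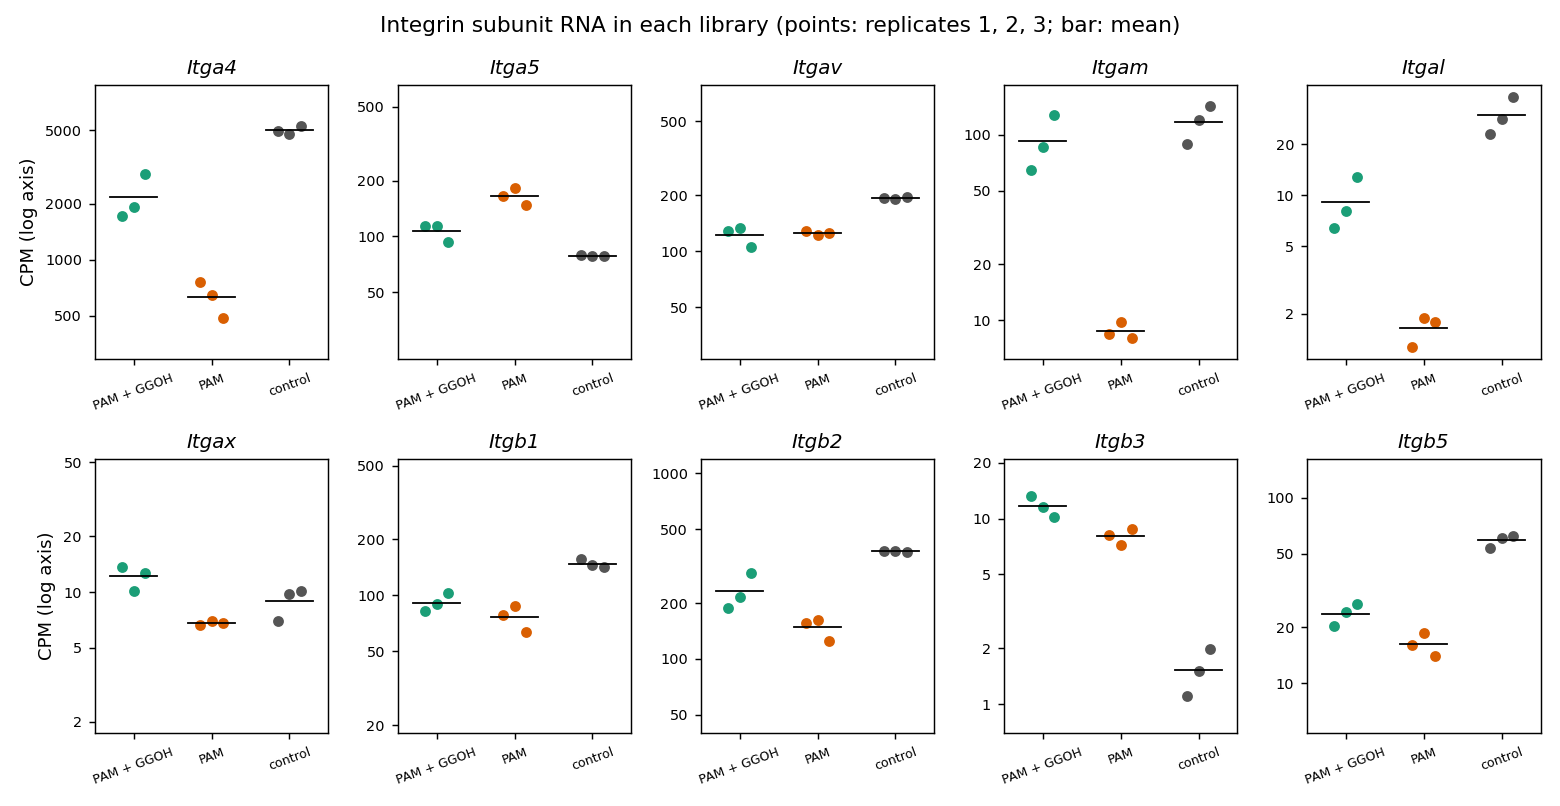
CPM of each subunit in every library on log axes, with replicates 1 to 3 from left to right and the mean as a bar. Each panel has its own range. Itga4, Itgam and Itgal are lowest with pamidronate, Itga5 is highest there, and Itgb3 is lowest in the control.

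Macrophage markers differed between the groups too. The summed CPM of 10 markers was 6705, 7359 and 9850 with pamidronate + GGOH, 6562, 6378 and 4586 with pamidronate, and 20630, 17578 and 15892 in the control, and all 10 reached 1 CPM in each group except Mrc1 with pamidronate, at 0.208 CPM. Most of that sum was Lyz2 (lysozyme), at means of 5895, 4303 and 13708 CPM. Cd14 had means of 681, 635 and 684 CPM, and Cd68 of 460, 629 and 1013 CPM, so the mean of Cd68 was lower with GGOH than with pamidronate alone. The sum of 11 osteoclast markers, was 952 to 1323, 506 to 694 and 1184 to 1570 in the same groups, with Calcr at 0 counts in the pamidronate and control libraries. Car2 (709, 151 and 986 CPM on average) made up most of it with pamidronate + GGOH and in the control, and its means were lowest with pamidronate. Several listed markers had their highest mean with pamidronate: Atp6v0d2 (126, 272 and 58.2 CPM), Ctsk (10.8, 32.9 and 4.70 CPM), Acp5 (3.42, 7.36 and 5.27 CPM), Dcstamp (4.96, 5.65 and 2.56 CPM) and, under 1 CPM, Oscar. Mmp9 was highest with pamidronate + GGOH (86.8, 17.7 and 27.1 CPM), and Nfatc1 and Tnfrsf11a in the control. In bulk RNA, fewer cells of a type and less RNA per cell cannot be told apart. Mitochondrially encoded RNA made up 5.43 to 6.31%, 3.71 to 5.19% and 10.4 to 10.8% of counts, and Malat1 2.39 to 2.82%, 4.53 to 4.99% and 1.35 to 1.66%. The endothelial marker sum was 27.5 to 56.2, 13.9 to 14.7 and 5.90 to 7.50 CPM, of which Tek averaged 28.4, 4.91 and 0.133 CPM and Vwf 11.2, 8.07 and 5.58 CPM. Tek was the larger part with pamidronate + GGOH and Vwf in the pamidronate and control groups. Cdh5 averaged 1.38, 0.166 and 0.272 CPM, while Pecam1 and Kdr stayed under 1 CPM on average. The part of these in the integrin results was not tested.

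Of the 16 other integrin subunits in the table, 10 passed the filter. With pamidronate against control, 6 rose and 2 fell, with a median log2 fold change of 1.17 against 0.08 over all genes, of which 36.2% rose and 32.9% fell. With GGOH against pamidronate, 4 rose and none fell (median 0.29 against 0.00), and with both agents against the control, 7 rose and 1 fell (median 1.52 against 0.02). Low subunits could pass the filter through the group where they were high, so these counts and medians depend on the filter. Itga2 had 2 to 7 counts in the control and 19 to 32 with pamidronate. Itga11 had 2 to 4 in the control and 13 to 20 with pamidronate + GGOH. Itga8, at 8 to 10 in the control and 0 to 1 with pamidronate, did not pass. The 2 that fell with pamidronate were Itga6, an alpha chain of laminin receptors, at 15.9 ± 2.07, 9.40 ± 1.29 and 26.1 ± 4.04 CPM in pamidronate + GGOH, pamidronate and the control, and Itgb7, a further beta partner of alpha4, at 17.9 ± 5.01, 10.6 ± 0.741 and 21.6 ± 2.78 CPM. Both were higher with GGOH than with pamidronate alone, by 0.76 ± 0.15 (adjusted p = 0.000875) and 0.76 ± 0.18 (adjusted p = 0.00277).

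The other called subunits were all low in the control. Itgae, the alphaE chain that pairs with beta7, averaged 8.37 ± 2.57, 6.50 ± 0.224 and 1.78 ± 0.777 CPM in pamidronate + GGOH, pamidronate and the control, and rose with pamidronate by 1.87 ± 0.30 (adjusted p = 7.06e-05). Itga10, an alpha chain of collagen receptors, averaged 7.66 ± 0.487, 8.53 ± 0.0650 and 2.73 ± 1.13 CPM and rose by 1.65 ± 0.24 (adjusted p = 2.59e-05). Itga2b, the platelet partner of beta3, had 31 to 37, 22 to 32 and 7 to 16 counts, and rose by 1.33 ± 0.34 with pamidronate (adjusted p = 0.00292). Itga2, Itga7 and Itgb4 rose with pamidronate too, and Itga11 rose with both agents against the control, from levels under 2 CPM in the control. Itga3, at 2 to 18 counts per library, was not called in any of the 3 comparisons. Itga1, Itga8, Itga9, Itgad, Itgb6 and Itgb8 did not pass the filter.

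Counts for the lists that follow are to be read against all genes tested, of which 36.2% rose and 32.9% fell with pamidronate (median 0.08), 25.2% rose and 23.6% fell with GGOH against pamidronate (median 0.00), and 26.3% rose and 26.0% fell with both agents against the control (median 0.02). No list was tested against other genes. Of 22 tested proteins that switch integrins on or off, 5 rose and 12 fell with pamidronate (median -0.43 against 0.08 over all genes). Flna (filamin A), which competes with talin at beta tails, averaged 292 ± 86.6, 96.9 ± 10.2 and 485 ± 66.6 CPM in pamidronate + GGOH, pamidronate and the control, and fell by 2.32 ± 0.20 with pamidronate (adjusted p = 2.93e-06). Rassf5 (RAPL), a Rap1 effector that acts on alphaLbeta2, averaged 37.2 ± 7.97, 15.8 ± 1.13 and 77.4 ± 7.08 CPM and fell by 2.29 ± 0.14 (adjusted p = 9.26e-09). Krit1, a Rap1 effector that binds the beta1 inhibitor ICAP1, averaged 101 ± 10.7, 181 ± 10.8 and 62.6 ± 6.51 CPM and rose by 1.53 ± 0.10 (adjusted p = 1.57e-08). With GGOH against pamidronate, 8 of the 22 rose and 4 fell (median -0.00 against 0.00), and against the control 5 rose and 11 fell with both agents (median -0.33 against 0.02). Tln1, the main talin, was not called in any comparison, at 618 ± 66.3, 651 ± 11.9 and 719 ± 49.4 CPM. The other talin, kindlin and Rap1 genes tested were called with pamidronate. Tln2 fell by 1.78 ± 0.21 (adjusted p = 3.55e-06) and the kindlin Fermt3 by 1.59 ± 0.14 (adjusted p = 3.4e-07). Rap1a fell by 0.91 ± 0.10 (adjusted p = 1.15e-06) and Rap1b by 0.89 ± 0.10 (adjusted p = 2.34e-06). The kindlin Fermt2 rose by 1.29 ± 0.51 (adjusted p = 0.0358) to 1.01 CPM. Tln1, Fermt2, Fermt3, Rap1a and Rap1b are outside the rule for named genes and were chosen after their values were seen.

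Of 31 linkers and kinases, 8 rose and 19 fell with pamidronate (median -0.78, against 0.08 over all genes, 36.2% of which rose and 32.9% fell). With GGOH against pamidronate 16 rose and 5 fell (median 0.32, against 0.00, 25.2% and 23.6% for all genes), and with both agents against the control 8 rose and 17 fell (median -0.34, against 0.02, 26.3% and 26.0%). Fgr, a Src-family kinase that acts below beta2 integrins in myeloid cells, averaged 19.8 ± 7.51, 5.11 ± 1.79 and 52.3 ± 2.15 CPM in pamidronate + GGOH, pamidronate and the control, and fell by 3.35 ± 0.31 (adjusted p = 1.31e-05) with pamidronate. The scaffold Bcar1 (p130Cas) was the highest riser of the list with pamidronate, by 3.67 ± 0.39 to 6.29 ± 1.05 CPM, against 0.483 ± 0.287 CPM in the control (adjusted p = 1.3e-06).

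Of 24 trafficking genes, 5 rose and 12 fell with pamidronate (median -0.30, against 0.08, 36.2% and 32.9% for all genes). With GGOH against pamidronate 7 rose and 7 fell (median -0.06), close to the 25.2% and 23.6% of all genes, and with both agents against the control none rose and 15 fell (median -0.42, against 0.02, 26.3% and 26.0% for all genes). Ehd1, which recycles receptors from endosomes, averaged 359 ± 115, 94.9 ± 7.49 and 672 ± 136 CPM and fell by 2.82 ± 0.25 with pamidronate (adjusted p = 7.59e-06). Vamp3, a vesicle fusion protein of recycling endosomes, averaged 53.4 ± 4.35, 111 ± 11.2 and 71.8 ± 2.13 CPM, rose with pamidronate by 0.63 ± 0.09 (adjusted p = 2.53e-05) and changed by -1.06 ± 0.09 with GGOH against pamidronate (adjusted p = 9.44e-07).

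Of 19 tested ligands, 4 rose and 9 fell with pamidronate (median -0.13, against 0.08, 36.2% and 32.9% for all genes). With GGOH over it 7 rose and 3 fell (median 0.66, against 0.00, 25.2% and 23.6%), and with both against the control 5 rose and 6 fell (median -0.02, against 0.02, 26.3% and 26.0%). Mfge8, a bridging ligand of alphaV integrins, followed the order of Itga5, at 70.5 ± 10.2, 123 ± 7.91 and 47.7 ± 1.23 CPM, and rose with pamidronate by 1.36 ± 0.10 (adjusted p = 4.03e-08). C3, the source of the complement fragment that Itgam binds, averaged 33.2 ± 25.6, 15.5 ± 1.68 and 101 ± 11.5 CPM and fell by 2.70 ± 0.52 (adjusted p = 0.00289). Of 17 lateral partners at the membrane, 2 rose and 14 fell with pamidronate (median -0.72), 9 rose and none fell with GGOH over it (median 0.47), and 3 rose and 10 fell with both against the control (median -0.36), beside the same shares and medians of all genes. Cd47, which associates with alphaVbeta3, averaged 161 ± 26.3, 76.7 ± 8.68 and 323 ± 10.9 CPM and fell by 2.08 ± 0.12 (adjusted p = 4.76e-09).

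Among 21 transcription factors that act at integrin or myeloid genes, 4 rose and 12 fell with pamidronate (median -0.44, against 0.08, 36.2% and 32.9% for all genes). With GGOH over it 8 rose and 4 fell (median 0.16, against 0.00, 25.2% and 23.6%), and with both against the control 5 rose and 10 fell (median -0.28, against 0.02, 26.3% and 26.0%). Mitf, a factor of osteoclasts, averaged 84.9 ± 11.6, 44.2 ± 10.2 and 174 ± 5.46 CPM and fell by 1.98 ± 0.15 (adjusted p = 2.23e-07). Cebpa, a factor of myeloid cells, averaged 14.8 ± 2.53, 9.04 ± 0.617 and 34.5 ± 1.55 CPM and fell by 1.93 ± 0.13 (adjusted p = 1.73e-08). Jun, a part of AP-1, rose with pamidronate by 1.15 ± 0.14 (adjusted p = 5.6e-06) and averaged 91.0 ± 7.13 CPM there, against 41.0 ± 9.21 CPM in the control. Spi1, which encodes PU.1 and was chosen after its values were seen, averaged 199 ± 39.0, 164 ± 18.6 and 344 ± 8.42 CPM in pamidronate + GGOH, pamidronate and the control, and fell by 1.07 ± 0.12 with pamidronate (adjusted p = 2.84e-06).

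The genes with the pattern most like 5 of the members were looked for by Pearson's r of log2 CPM over the 9 libraries among 9314 genes, as a description only, since the libraries form 3 groups. For Itga4 they included Smarcc2 (r = 0.998) and Tlr7. For Itgb1 they were Arid1b (0.999), Ctss and Pigk, for Itgb2 Uba1 (0.997), Atp8b2 and Sod2, and for Itgb5 Dcun1d2 (0.997), Sh3bgrl and Rfk. For Itgb3 they were Ankdd1a (0.992), Neo1 and Zan, which averaged 14.1, 19.3 and 82.6 CPM with pamidronate + GGOH, 8.22, 8.64 and 39.0 CPM with pamidronate, and 2.00, 0.532 and 1.29 CPM in the control. Between members, r over the same 9 libraries was -0.97 for Itga4 with Itga5 and 0.98 for Itga4 with Itgb2, which are not partners. With the partner Itgb1 it was 0.92 for Itga4, -0.85 for Itga5 and 0.82 for Itgav. With the partner Itgb2 it was 0.87 for Itgam, 0.96 for Itgal and 0.35 for Itgax. Itgav had -0.92 with Itgb3 and 0.86 with Itgb5.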

How the data were processed

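The authors deposited raw counts per gene for 9 libraries in a combined table and per library, with 0 differing values between them, and TPM values, which equal count over exon length scaled within each library to within 5e-05. Reads were trimmed with Trimmomatic 0.36, per the submitters' processing notes, which also name GRCm38 and DESeq without a version or role. The aligner, the counting tool and its strand setting were not given in the sources used here.

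Groups came from the treatment labels, with 3 libraries each. Counts were filtered with edgeR's filterByExpr, leaving 15963 genes, scaled with TMM factors and tested in a model of 3 group means over all 9 libraries with edgeR's quasi-likelihood test (edgeR 4.0.16, R 4.3.3, robust) and Benjamini-Hochberg adjustment. The biological coefficient of variation was 0.127. Library totals were 14356069 to 18957968 counts, so members under 100 counts carry the most counting error. On simulated data for pamidronate against control with 15463 genes, the test recovered 50.7% of genes changed 1.5-fold, 92.5% changed 2-fold and 100% changed 4-fold, with 15 unchanged genes called. The simulation changed only a small part of the genes, all above 1 CPM and evenly up and down. It gave every gene the same biological coefficient of variation. In the data 69.2% of genes were called, so the simulated rates need not hold for these libraries. CPM values use the TMM factors. TPM, as the authors deposited it, served for levels between genes and partner ratios. Ratio tests used log2 of counts with 0.5 added (Python 3.11.15).

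The members, gene lists and marker lists were chosen with earlier results of these data known. Named genes were all members, the other subunits that passed the filter, for each list the called genes with the 2 largest and 2 smallest changes per comparison at 5 CPM or more in the higher group, and the 3 genes most like each of 5 members; not every gene the rule took is named, and some are not reported here. Positions come from the authors' deposited counts per library, on GRCm38, and promoters from RefSeq GRCm38.p6. Alternatives were RLE and upper-quartile factors, TMM without mitochondrial RNAs, Malat1 and Gm26917, other filters on low counts (none, or at least 1 CPM in 6 libraries), limma-voom and limma on TPM (limma 3.58.1), DESeq2 1.42.0, the 2 groups alone, a replicate block, stricter thresholds and leaving out each library.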

Additional observations from a re-analysis of the deposited data

How the results depend on the processing

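Over 22 other settings, 719 values of members were compared with the first fit, the second Itgam gene included. Of these, 666 kept direction and side of the threshold, 32 lost the call, 15 gained it and 6 turned direction. The stricter limits, an adjusted p under 0.01 and at least 2-fold, reused the first fit, so there only the calls could change. All 6 that turned were Itgav with GGOH against pamidronate, which was not called in any fit: 0.0028 with TMM without mitochondrial RNAs, Malat1 and Gm26917, 0.0049 without the filter, 0.15 on TPM, and, over the fits that left out 1 library, -0.062 to 0.10, positive without control replicate 2 or 3 or pamidronate + GGOH replicate 3. A minimum of 2-fold left 6047, 2590 and 3079 of 11042, 7784 and 8359 called genes for pamidronate against control, pamidronate + GGOH against pamidronate and pamidronate + GGOH against control, and 7, 3 and 4 of 9, 8 and 9 called members. Leaving out each library gave 10207 to 11433, 6590 to 8215 and 6923 to 8932 called genes and 9 to 10, 7 to 9 and 8 to 9 called members. On TPM the calls split into 5345 higher and 2393 lower with GGOH against pamidronate and 6973 higher and 1469 lower with both agents against the control, with medians of all genes of 0.16 and 0.28. The 216 recomputed partner ratio differences moved by less than 1 pooled SD, and none of those whose groups were apart turned direction. For the replicate block and for leaving out 1 library this was fixed by the arithmetic, so it is no check. Only the values with 5 added to counts and those on TPM could have moved further. Whether replicate numbers pair the samples was not settled. Same-numbered samples deviated together with correlations of -0.224 to 0.204, and 9 of 18 correlated best with their own number among 3. So few libraries cannot exclude pairing. The replicate block gave 10980, 7622 and 8275 called genes, with 9, 8 and 9 members. Depth limits Itgb3 in the control, Itgal with pamidronate and the second Itgam gene.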
